A study of Homo sapiens with 6 samples.

Results

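The genes examined here are 57 listed members of the machinery of cell division, covering mitotic kinases and cyclins, the spindle checkpoint, kinetochores, condensin, the spindle, cytokinesis and the partners of the anaphase-promoting complex (APC/C). They were taken by name from a list, and each symbol matched exactly 1 of the 60658 gene identifiers in the deposited tables. All 57 were above 0.1 FPKM (fragments scaled by transcript length and library size) in all 6 libraries, so no member was lost to a filter on low values. The members lie on 20 chromosomes and were sorted by role into 9 groups.

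A cell enters mitosis when cyclin B activates the kinase CDK1, which WEE1 and PKMYT1 hold in check and the CDC25 phosphatases release. Condensin compacts the chromosomes, kinetochores tie them to the spindle, and the spindle checkpoint keeps CDC20 from activating the APC/C until every chromosome is attached. The APC/C then marks securin and cyclin B for destruction by the proteasome, separase cuts cohesin, and the cell divides in 2. The transcripts of most of these genes peak in G2 and mitosis, under the control of B-MYB (MYBL2), FOXM1 and the MuvB complex, and are low in resting cells. In prostate cancer, as in other tumors, their levels are widely read as a measure of proliferation.

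The cells were C4-2B MDVR, a derivative of the prostate cancer line C4-2B that was selected for resistance to enzalutamide and kept in medium with 20 µM of the drug, and CWR22Rv1, a prostate cancer line grown without it. Each line received DMSO, 10 µM APO (apoptozole) or 10 µM VER (VER155008) for 48 h, and both compounds inhibit HSP70. Each of the 6 conditions had a single library, so no difference below has a replicate check, no p-value is given, and a fold change compares 2 libraries. The titles name C4-2B MDVR, while the source and cell type fields of the same libraries name LNCaP-C4-2B and parental cells. Fold changes are given as differences of log2(FPKM + 0.1), and a gene was counted as changed past 1.2-fold, the threshold used in the study. In bulk RNA, fewer dividing cells and less of each transcript per cell cannot be told apart.

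The prostate epithelial markers KLK3, HOXB13, TMPRSS2, KRT8 and KRT18 were above 1 FPKM in all 6 libraries. Of 10 markers of immune, endothelial and stromal cells, 2 to 4 were above 1 FPKM in a library, with sums from 10.1 to 39.0 FPKM, and PECAM1, an endothelial marker, was listed at 0 in all 6. Most of that sum was COL1A1 in C4-2B MDVR cells and LUM in CWR22Rv1 cells. The deposited values give no read totals. With the C4-2B MDVR DMSO library set to 1, the depth read from the smallest values was between 1.16 and 1.602 in the others. Mitochondrial transcripts held 15.5%, 14.8% and 16.4% of all FPKM in the DMSO, APO and VER libraries of C4-2B MDVR cells and 25.7%, 10.5% and 25.7% in CWR22Rv1 cells. Some results on APO in CWR22Rv1 cells are for that reason also given below with libraries brought to the same sum without those transcripts.

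Most members with a promoter sequence share an element that the choice of genes did not use. The cell cycle genes homology region (CHR), with the letters TTTGAA, is the element through which the MuvB complex holds such genes silent in resting cells and B-MYB and FOXM1 act in G2. CCAAT boxes, bound by NF-Y, often lie upstream of it. RefSeq windows on GRCh38.p14, from 250 bases before to 50 bases after each start site, were at hand for 44 of the 57 members. TTTGAA was present on either strand in 32 of the 44 (72.7%), against 18.2% of 27305 genes with a window. Within 50 bases of the start it was present in 27 members (61.4%), against 5.77% of all genes. The variant TTCGAA was found in 4 members (9.09%, against 1.82% of genes) and CCAAT in 34 (77.3%, against 39.7%). A match is a description of the letters and not a measured binding site.

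The 150 bases before the RefSeq start of 8 members that the results below turn on are shown 5′ to 3′, with TTTGAA in capitals, as are CCAAT boxes on either strand (a box on the opposite strand reads ATTGG). PLK1, CCNB2, CENPA, ESPL1, MKI67 and INCENP carry the arrangement of CCAAT upstream and TTTGAA within 50 bases of the start. CCNB2, CDC20 and CENPA are genes that APO did not lower in CWR22Rv1 cells, and ESPL1, MKI67 and INCENP are genes that it lowered there. CCNB1 is a gene with CCAAT boxes and no TTTGAA.
PLK1, chr16:23678739-23678888, plus strand: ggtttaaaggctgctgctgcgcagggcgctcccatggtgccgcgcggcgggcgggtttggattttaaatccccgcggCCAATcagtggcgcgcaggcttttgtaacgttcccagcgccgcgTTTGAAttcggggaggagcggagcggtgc
CCNB2, chr15:59104996-59105145, plus strand: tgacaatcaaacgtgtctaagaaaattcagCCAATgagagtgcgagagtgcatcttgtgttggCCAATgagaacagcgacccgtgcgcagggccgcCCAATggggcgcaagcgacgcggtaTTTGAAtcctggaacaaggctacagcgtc
CDC20, chr1:43358831-43358980, plus strand: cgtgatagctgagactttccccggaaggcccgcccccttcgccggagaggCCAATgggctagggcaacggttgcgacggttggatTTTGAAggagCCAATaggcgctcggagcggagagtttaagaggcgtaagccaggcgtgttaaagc
CENPA, chr2:26785906-26786055, plus strand: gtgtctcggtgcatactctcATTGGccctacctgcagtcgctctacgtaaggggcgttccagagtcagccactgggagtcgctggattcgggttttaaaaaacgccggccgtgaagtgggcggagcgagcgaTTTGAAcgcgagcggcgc
CCNB1, chr5:69167000-69167149, plus strand: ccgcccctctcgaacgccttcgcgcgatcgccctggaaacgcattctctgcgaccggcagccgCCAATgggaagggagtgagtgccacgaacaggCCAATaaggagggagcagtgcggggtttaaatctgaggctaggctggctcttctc
ESPL1, chr12:53268149-53268298, plus strand: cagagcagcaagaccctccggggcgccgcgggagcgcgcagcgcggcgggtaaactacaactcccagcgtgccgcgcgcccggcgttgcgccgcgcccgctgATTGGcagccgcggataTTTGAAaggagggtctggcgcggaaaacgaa
MKI67, chr10:128126424-128126573, minus strand: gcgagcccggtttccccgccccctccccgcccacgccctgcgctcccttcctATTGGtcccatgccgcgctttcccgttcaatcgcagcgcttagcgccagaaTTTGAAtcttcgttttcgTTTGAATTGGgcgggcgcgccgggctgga
INCENP, chr11:62123861-62124010, plus strand: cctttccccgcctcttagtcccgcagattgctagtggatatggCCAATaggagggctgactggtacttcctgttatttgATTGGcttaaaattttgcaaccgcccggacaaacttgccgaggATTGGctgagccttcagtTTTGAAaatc
The first base of TTTGAA lies 29 bases before the start in PLK1 and CCNB2, 31 in ESPL1, 18 in CENPA, 10 in INCENP and 65 in CDC20. MKI67 holds 2 copies, the nearer at 29 bases, and the last run of capitals there joins the nearer copy to a CCAAT box of the opposite strand, with 1 base in common. For CDC20 and MKI67 the bases just after the RefSeq start were not found near the beginning of a GENCODE 29 transcript. Their distances therefore hold for the RefSeq start alone. CCNB2 and INCENP have 3 CCAAT boxes each, CCNB1, CDC20 and MKI67 have 2, and the others have 1. Members with TTTGAA had a lower median than those without it in C4-2B MDVR cells and a higher one in CWR22Rv1 cells, with no test made. Under APO in C4-2B MDVR cells the median log2 fold change was -1.002 in the 32 with it and -0.91 in the 12 without it, and under VER it was -3.24 and -2.87. In CWR22Rv1 cells the same medians were -0.61 and -0.74 under APO and -1.05 and -1.29 under VER.

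The first question was how far each HSP70 inhibitor lowered the mitotic genes in each line. VER in C4-2B MDVR cells gave the deepest fall, with all 57 genes lower by more than 1.2-fold and 56 lower by more than 2-fold. Among the 20122 genes compared in that line, 34.9% were lower by more than 1.2-fold and 13.3% by more than 2-fold. The median log2 fold change of the 57 was -3.14, against 0.00 over all genes compared, and the median gene was left at 11.1% of its DMSO value. PLK1, at 4.15% of its DMSO value, was the lowest of the 57, and BUB3, at 56.0%, was the highest. In all, 22 genes were left under 10% of their DMSO value by VER in this line, among them AURKB, CDC20, CENPA, TOP2A and MKI67.

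APO in C4-2B MDVR cells lowered 52 of the 57 genes by more than 1.2-fold, where 35.4% of all genes were lower, and 26 by more than 2-fold, where 13.3% were. The median log2 fold change was -0.98 and the median gene was left at 50.5% of its DMSO value. CDK1 fell the most, to 19.7%. CCNB2, PTTG1, UBE2S, BUB3 and CDC25C did not pass 1.2-fold, and their values lay between 84.2% and 92.1% of DMSO. At the same sum, with or without mitochondrial genes, all 5 passed and 57 were lower, where 42.2% and 42.7% of all genes were. Scaled to a list of housekeeping genes, CCNB1 and HMMR did not pass either, and 50 were lower, where 30.5% of all genes were.

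CWR22Rv1 cells showed smaller differences. VER lowered 55 of the 57 genes by more than 1.2-fold in this line (32.3% of the 21608 genes compared were lower) and 35 by more than 2-fold (8.92% of all genes), with a median of -1.10. BUB3 and CENPN did not pass 1.2-fold under VER, at 84.0% and 86.0% of DMSO. APO lowered 46 genes by more than 1.2-fold (39.2% of all genes were lower) and 17 by more than 2-fold (16.8%), with a median of -0.56. At the same sum without mitochondrial genes, APO lowered 52 by more than 1.2-fold (45.0% of all genes) and 21 by more than 2-fold (19.9%). The median of the members was then -0.71. At the same sum with mitochondrial genes it lowered 38 by more than 1.2-fold (35.2% of all genes). There PLK1, AURKA, TPX2, HMMR, CDCA8, NCAPG, PTTG1 and UBE2S no longer passed, and with the housekeeping genes TOP2A and TTK did not pass either. CENPA and CDC25C rose past 1.2-fold under APO, where 35.6% of all genes were higher, but neither passed it when libraries were brought to the same sum without mitochondrial genes. The members together held 0.455%, 0.213% and 0.0724% of all FPKM in the DMSO, APO and VER libraries of C4-2B MDVR cells. In CWR22Rv1 cells the shares were 0.433%, 0.310% and 0.203%.

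**Figure D1:**
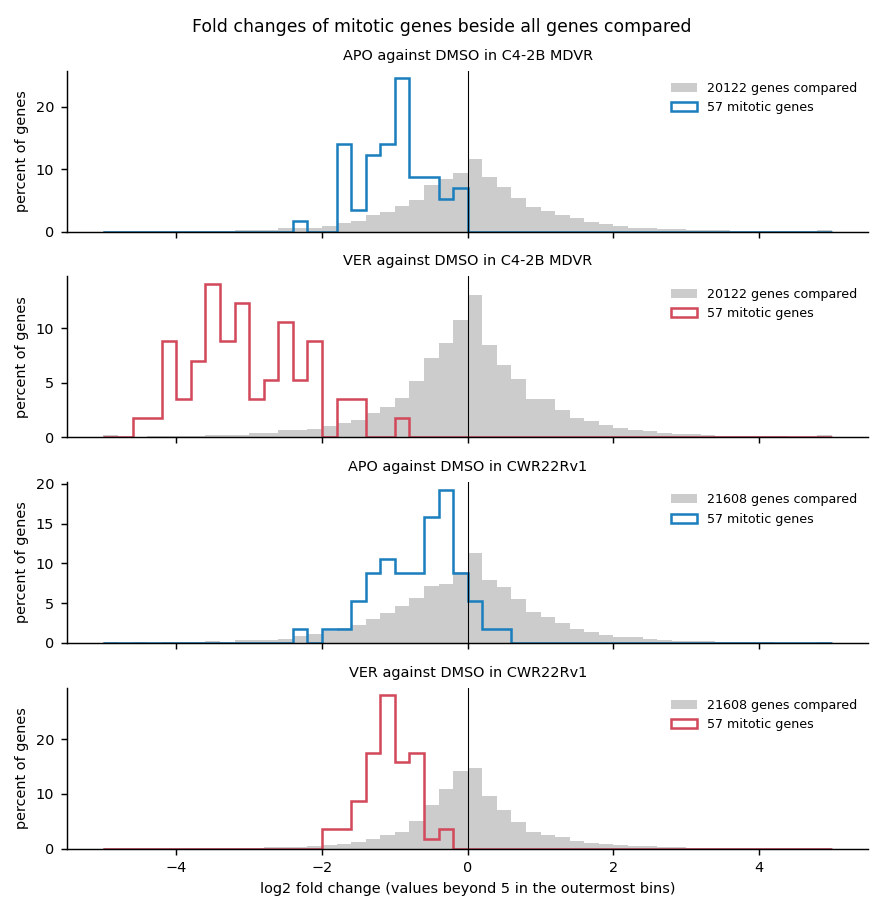
Distribution of log2 fold changes in the 4 contrasts of inhibitor and DMSO, in bins of 0.2, as a percent of genes. Grey bars are all genes compared (20122 in C4-2B MDVR, 21608 in CWR22Rv1) and coloured outlines are the 57 mitotic genes, whose medians are -0.98, -3.14, -0.56 and -1.10 from top to bottom.

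The order of the 3 libraries was the same for every member in C4-2B MDVR cells. All 57 genes were highest under DMSO, intermediate under APO and lowest under VER, and 54 of the 57 were so when libraries were scaled to 10 housekeeping genes. CWR22Rv1 cells had that order for 38 genes. A further 14 genes were highest under DMSO and lowest under APO, and CCNB2, CDC20, CDC25B, CDC25C and CENPA were highest under APO and lowest under VER. Of these 5, CCNB2 and CDC25B were below DMSO under APO at the same sum without mitochondrial genes, and all 5 were above DMSO under APO in the other 3 scalings. The plot of levels by library shows the parallel fall in C4-2B MDVR cells and the crossing of CDC20 and KNTC1 in CWR22Rv1 cells.

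**Figure D2:**
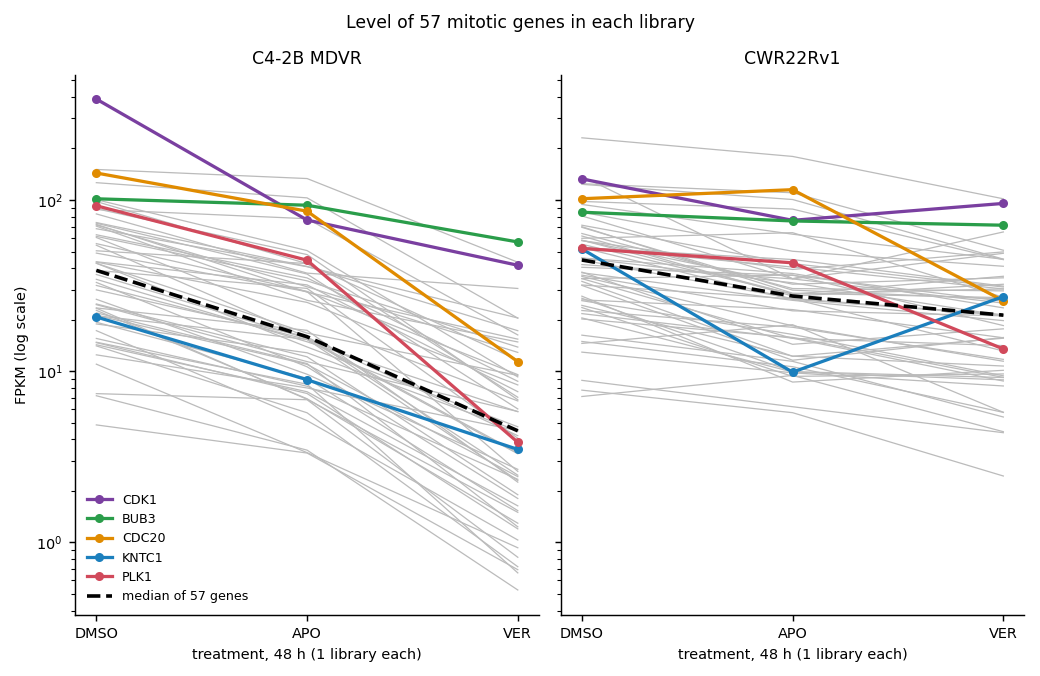
FPKM on a log scale of the 57 mitotic genes under DMSO, APO and VER in each line, 1 library per point. Grey lines are single genes, 5 genes are coloured, and the dashed black line is the median, which falls from 38.8 over 15.9 to 4.49 FPKM in C4-2B MDVR and from 44.6 over 27.5 to 21.3 FPKM in CWR22Rv1 cells.

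Regulators of mitotic entry fell under VER in both lines, and APO lowered fewer of them past 1.2-fold. All 9 genes were lower under VER past 1.2-fold in each line (34.9% and 32.3% of all genes). APO lowered 7 in C4-2B MDVR cells, against 5 in CWR22Rv1 cells (35.4% and 39.2%). At the same sum, with or without mitochondrial genes, CCNB2 and CDC25C also passed under APO in C4-2B MDVR cells. In CWR22Rv1 cells CCNB1 under APO also passed at the same sum without those genes. With the housekeeping genes, CCNB1 under APO in C4-2B MDVR cells and CDK1 under VER in CWR22Rv1 cells did not pass. CDK1, the kinase that drives entry, was at 389, 76.4 and 41.6 FPKM in the DMSO, APO and VER libraries of C4-2B MDVR cells and at 133, 76.1 and 95.5 FPKM in CWR22Rv1 cells. It was the highest of the 57 genes in the C4-2B MDVR DMSO library, and the 2 APO libraries were nearly level. CCNA2, the A-type cyclin of S phase and G2, was at 22.7, 6.91 and 1.30 FPKM in C4-2B MDVR and 52.7, 26.3 and 21.3 FPKM in CWR22Rv1 cells. It fell with both compounds in both lines, with log2 fold changes of -1.70 and -4.03 in the first line and -1.0006 and -1.31 in the second.

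The B-type cyclins, partners of CDK1, moved less under APO than CCNA2 did. CCNB1 had log2 fold changes of -0.29 and -0.18 under APO in the 2 lines, and CCNB2 of -0.25 and 0.11. Under VER the same cyclins had -2.62 and -2.82 in C4-2B MDVR cells and -1.29 and -1.14 in CWR22Rv1 cells. The ratio of CCNB1 to CDK1, both in FPKM, was thus 0.325 under DMSO, 1.35 under APO and 0.491 under VER in C4-2B MDVR cells. In CWR22Rv1 cells it was 0.938, 1.45 and 0.533, so that the APO library had the highest ratio in each line.

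CDC25C, a phosphatase that activates CDK1, was at 7.40, 6.82 and 0.819 FPKM in the DMSO, APO and VER libraries of C4-2B MDVR cells and at 7.12, 9.45 and 4.43 FPKM in CWR22Rv1 cells. It had the highest mean fold change of the entry genes, and under VER it fell in both lines. CDC25B, another phosphatase of the family, followed it, with log2 fold changes under APO of -0.56 and 0.07. Both kinases that inhibit CDK1 were lower under APO. PKMYT1 had log2 fold changes under APO of -1.62 in C4-2B MDVR cells and of -1.98 in CWR22Rv1 cells, against -1.08 under VER in the latter. WEE1 had -1.10 and -0.53 under APO. The ratio of CDC25C to WEE1 was therefore 0.302 under DMSO and 0.599 under APO in C4-2B MDVR cells and 0.189 and 0.364 in CWR22Rv1 cells. CDCA3, which serves the degradation of WEE1, had one of the widest gaps between compounds in C4-2B MDVR cells, with -0.75 for APO and -4.18 for VER.

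The spindle checkpoint genes fell with both compounds in both lines, apart from BUB3, which passed 1.2-fold under VER in C4-2B MDVR cells alone. At the same sum BUB3 also passed under APO in C4-2B MDVR cells and under VER in CWR22Rv1 cells. At the same sum without mitochondrial genes BUB3 passed under APO in CWR22Rv1 cells too. TTK under APO in CWR22Rv1 cells did not pass with the housekeeping genes. BUB1B, which encodes the checkpoint protein BUBR1, was at 26.3, 9.60 and 2.67 FPKM in the DMSO, APO and VER libraries of C4-2B MDVR cells and at 35.8, 18.4 and 11.4 FPKM in CWR22Rv1 cells. BUB3, its partner, was at 102, 93.3 and 56.9 FPKM in C4-2B MDVR cells and at 84.9, 75.5 and 71.3 FPKM in CWR22Rv1 cells. BUB3 was the single member that VER did not lower by 2-fold in C4-2B MDVR cells, and it was the highest of the 57 genes in that library. TTK, the kinase MPS1 that starts checkpoint signaling, had the widest gap between lines of all members under VER, with a log2 fold change of -4.11 in C4-2B MDVR cells, against -0.65 in CWR22Rv1 cells. BUB1 had -3.05 and -1.30, and MAD2L1, which binds CDC20, had -2.55 and -0.72.

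All 4 genes of the chromosomal passenger complex, which corrects faulty attachments and steers cytokinesis, fell past 1.2-fold in all 4 contrasts, where 32.3% to 39.2% of all genes did. CDCA8 under APO in CWR22Rv1 cells passed neither at the same sum nor with the housekeeping genes. AURKB, the kinase of the complex, was at 54.4, 15.8 and 4.20 FPKM in the DMSO, APO and VER libraries of C4-2B MDVR cells and at 69.8, 28.6 and 26.9 FPKM in CWR22Rv1 cells. BIRC5, which encodes survivin, was at 100.5, 50.7 and 9.27 FPKM and at 71.3, 42.5 and 31.0 FPKM. CDCA8, which encodes borealin, was at 31.7, 15.3 and 3.30 FPKM and at 20.2, 15.8 and 9.21 FPKM. Each of the 3 was lowest under VER in both lines, but AURKB was lowest under APO in CWR22Rv1 cells when scaled to the housekeeping genes or to the same sum without mitochondrial genes. INCENP, the scaffold, stood apart, with log2 fold changes under APO and VER of -1.35 and -2.16 in C4-2B MDVR cells and of -1.44 and -1.01 in CWR22Rv1 cells. The ratio of AURKB to INCENP fell from 1.27 to 0.945 to 0.444 across DMSO, APO and VER in the first line and was 2.20, 2.46 and 1.71 in the second.

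Genes that act with the APC/C in separating sister chromatids gave the widest gap between the compounds in CWR22Rv1 cells. All 6 were lower by more than 2-fold under VER in both lines (13.3% and 8.92% of all genes). Their median for VER against APO in CWR22Rv1 cells, -0.90, was the lowest of the 9 groups. CDC20, the activator of the APC/C in mitosis, was at 144, 86.0 and 11.4 FPKM in the DMSO, APO and VER libraries of C4-2B MDVR cells and at 102, 115 and 25.8 FPKM in CWR22Rv1 cells. Under VER it had the lowest log2 fold change of the 57 in CWR22Rv1 cells, -1.98, and under APO it was one of the 5 genes above DMSO there. The ubiquitin-conjugating enzymes of the complex also fell most under VER. UBE2C was at 89.0, 48.0 and 6.81 FPKM in C4-2B MDVR cells and at 98.2, 88.5 and 44.8 FPKM in CWR22Rv1 cells. Its log2 fold change under APO in the latter was -0.15, and it passed 1.2-fold there at the same sum without mitochondrial genes. UBE2S was at 151, 133 and 43.3 FPKM and at 231, 179.7 and 102 FPKM, the highest of the 57 in the CWR22Rv1 libraries. UBE2S overlaps the ribosomal protein gene RPL28, and the strand setting of the counting is not given in the sources used here.

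ESPL1, which encodes separase, was at 17.3, 5.15 and 1.03 FPKM in the DMSO, APO and VER libraries of C4-2B MDVR cells and at 26.7, 9.95 and 9.19 FPKM in CWR22Rv1 cells. In the latter the 2 compounds were nearly level. PTTG1, which encodes securin, the inhibitor of separase, was at 88.4% of DMSO under APO in C4-2B MDVR and at 81.5% in CWR22Rv1 cells. Under VER it was left at 18.5% and 36.6%. CDCA5, which encodes sororin, the protector of cohesin, had log2 fold changes of -1.62 and -1.39 under APO and of -3.15 and -1.10 under VER in the lines in the same order.

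The core of the APC/C had smaller differences. Of 15 genes of its core subunits and its other activator FZR1, APO lowered 6 and raised 5 past 1.2-fold in C4-2B MDVR cells. VER lowered 5 and raised 3. Among the 20122 genes compared there, 35.4% and 34.9% were lower, and 7582 and 7173 genes were higher. In CWR22Rv1 cells the counts were 5 lower and 6 higher under APO and 2 lower and 1 higher under VER. Among the 21608 genes compared there, 39.2% and 32.3% were lower, and 7692 and 6926 genes were higher. The medians lay between -0.15 and -0.07 in the 4 contrasts. ANAPC2 had the lowest mean of the list, with log2 fold changes of -0.68 and -0.75 under APO and under VER in C4-2B MDVR cells and of -1.19 and -0.19 in CWR22Rv1 cells. ANAPC16 had the highest, at 26.8, 60.4 and 56.6 FPKM in the first line and 61.1, 105 and 91.6 FPKM in the second. The ratio of CDC20 to FZR1 fell from 12.4 under DMSO to 6.81 under APO and 1.03 under VER in C4-2B MDVR cells, and was 5.74, 7.20 and 2.20 in CWR22Rv1 cells.

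In CWR22Rv1 cells some kinetochore genes were lowest under APO and others were lowest under VER. All 11 fell past 1.2-fold with each compound in C4-2B MDVR cells (35.4% of all genes under APO and 34.9% under VER). VER lowered all 11 by more than 2-fold there (13.3% of all genes). In the comparison of VER and APO in CWR22Rv1 cells, 34.5% of all genes were lower under VER past 1.2-fold and 37.3% were higher. Of the 11, CENPA, CENPE, CENPF, NDC80, NUF2 and SPC25 were lower, and CENPM, CENPN, SPC24, ZWINT and KNTC1 were higher. At the same sum ZWINT and KNTC1 alone among these 5 remained higher past 1.2-fold. KNTC1, a subunit of the complex that brings dynein to the kinetochore, was at 20.8, 8.92 and 3.49 FPKM in the DMSO, APO and VER libraries of C4-2B MDVR cells and at 51.8, 9.88 and 27.3 FPKM in CWR22Rv1 cells. It had the lowest log2 fold change of the 57 under APO in CWR22Rv1 cells, -2.38, and a log2 fold change of -0.92 under VER. CDC20, of the APC/C group, and KNTC1 lay at opposite ends of the 57 genes for VER against APO in CWR22Rv1 cells. Their ratio there was therefore bound to differ between the compounds, and was 1.96 under DMSO, 11.6 under APO and 0.945 under VER.

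ZWINT, which helps to bind that complex, was at 70.4, 26.0 and 14.8 FPKM in C4-2B MDVR cells and at 80.8, 34.6 and 48.8 FPKM in CWR22Rv1 cells. CENPN, which reads the centromeric nucleosome, was at 83.0, 37.4 and 30.4 FPKM and at 57.9, 39.3 and 49.8 FPKM. VER left CENPN at 36.7% of DMSO in C4-2B MDVR cells and did not lower it by 1.2-fold in CWR22Rv1 cells. CENPN overlaps CMC2, which reached 192 FPKM, and the 2 cannot be told apart without the strand of the counting. CENPA, the histone variant that marks centromeres, had log2 fold changes under APO of -0.43 and 0.36 and under VER of -3.32 and -1.32 in the 2 lines.

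The 4 genes of the NDC80 complex, the main coupler of kinetochores and microtubules, did not move as a unit. NDC80, NUF2 and SPC25 had log2 fold changes under APO in CWR22Rv1 cells of -0.19, -0.16 and -0.51, and SPC24 had -1.45. NDC80 and NUF2 passed 1.2-fold in that contrast at the same sum without mitochondrial genes. Under VER in C4-2B MDVR cells NDC80 and SPC25 had log2 fold changes of -4.05 and -4.28, and SPC24 and NUF2 of -2.68 and -3.14. The ratio of NDC80 to SPC24 was 1.41, 1.36 and 0.528 in the DMSO, APO and VER libraries of C4-2B MDVR cells and 0.780, 1.87 and 1.01 in CWR22Rv1 cells. CENPE, a motor of the outer kinetochore, and CENPF, a large coat protein, were lower under VER than under APO in both lines. Under VER the log2 fold changes of CENPE were -2.64 and -1.63, and those of CENPF were -3.08 and -1.45.

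Of 28 other kinetochore and centromere genes, VER lowered 25 past 1.2-fold in C4-2B MDVR cells, against 23 in CWR22Rv1 cells (34.9% and 32.3% of all genes), and APO lowered 19 and 17 (35.4% and 39.2%). Their medians, -0.51 and -1.59 under APO and under VER in the first line and -0.41 and -0.58 in the second, were nearer to 0 than those of the 11 members. KNL1, the scaffold for BUB proteins, had the lowest mean, at 9.58, 3.52 and 0.682 FPKM and at 19.9, 8.24 and 12.2 FPKM. MAD1L1, the partner of MAD2L1, had the highest, at 14.7, 14.9 and 14.2 FPKM and at 13.5, 18.0 and 16.7 FPKM.

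**Figure D3:**
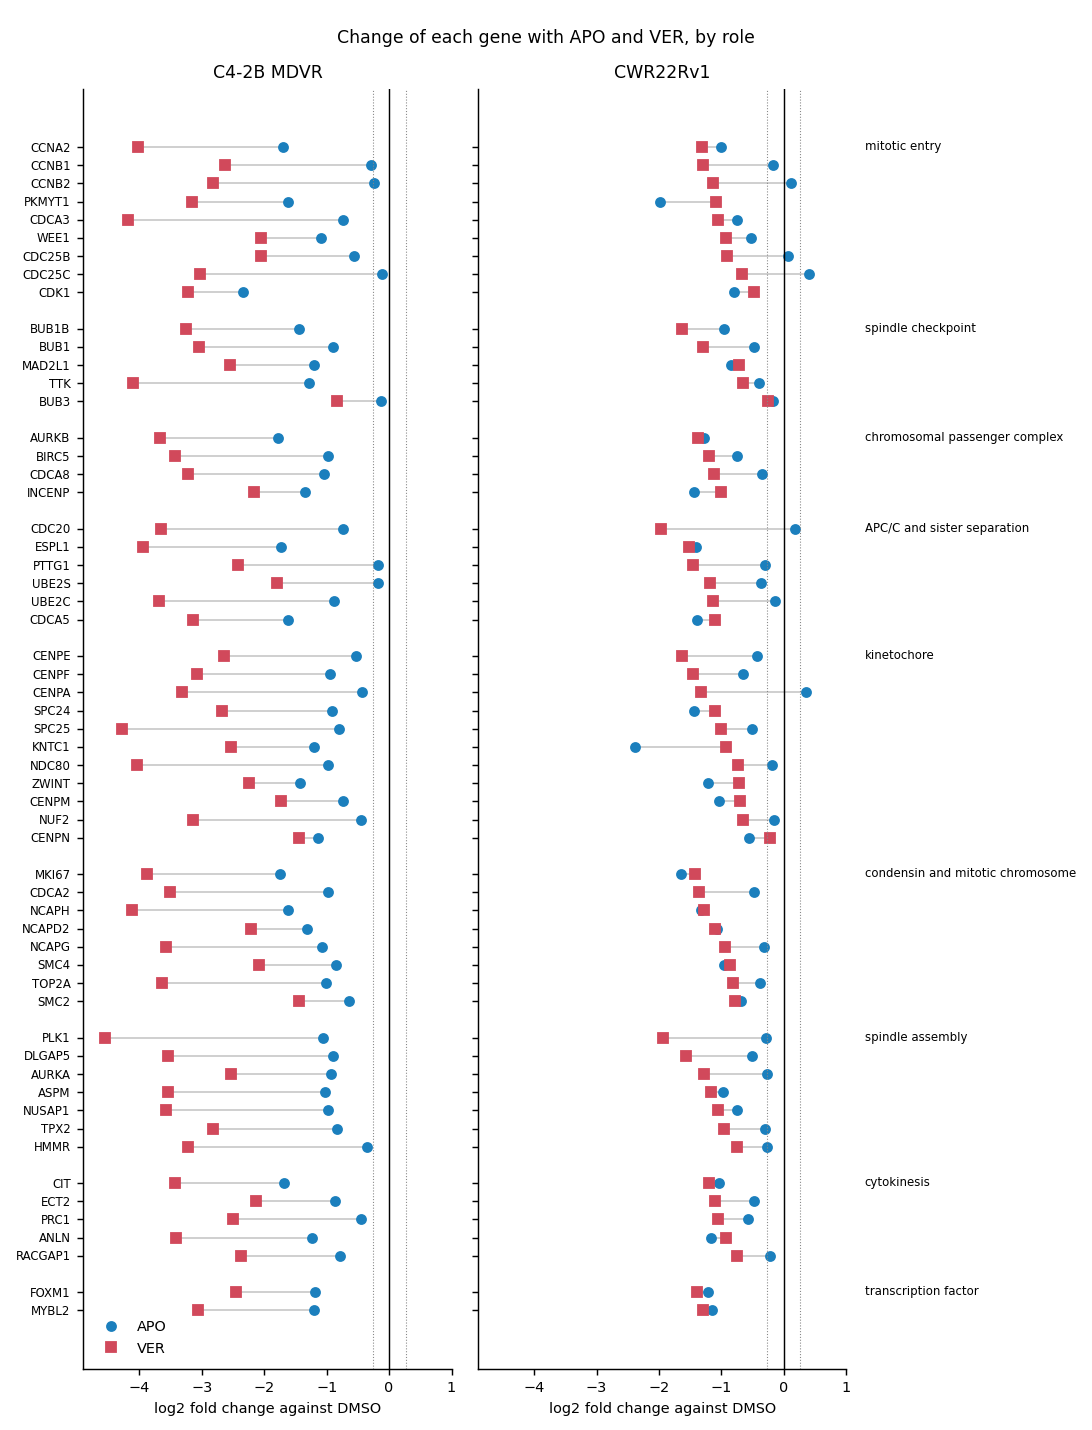
Log2 fold change of each of the 57 genes under APO (blue circles) and VER (red squares) against DMSO, by role, in the 2 lines, with 1 library per condition. Dotted lines mark 1.2-fold in each direction. In C4-2B MDVR cells every square lies to the left of its circle, and in CWR22Rv1 cells 14 lie to the right, KNTC1 and PKMYT1 the farthest.

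Condensin and chromosome genes fell in all 4 contrasts, all 8 past 1.2-fold in each, where 32.3% to 39.2% of all genes did. Under APO in CWR22Rv1 cells NCAPG did not pass at the same sum, nor did NCAPG and TOP2A with the housekeeping genes. In CWR22Rv1 cells APO and VER differed little in this group, with a median of -0.07 for VER against APO. NCAPD2, a subunit of condensin I, was at 72.0, 28.96 and 15.4 FPKM in the DMSO, APO and VER libraries of C4-2B MDVR cells and at 63.7, 30.4 and 29.5 FPKM in CWR22Rv1 cells. SMC2, the ATPase core of both condensins, was at 12.5, 7.99 and 4.498 FPKM and at 36.4, 22.5 and 21.1 FPKM, the smallest mean change in the group. NCAPH and NCAPG, which belong to condensin I alone, had log2 fold changes under VER of -4.12 and -3.57 in C4-2B MDVR cells, against -1.45 for SMC2 and -2.09 for SMC4. The ratio of NCAPH to SMC2 fell from 2.65 to 1.33 to 0.402 across the C4-2B MDVR libraries and was 0.647, 0.414 and 0.458 in those of CWR22Rv1. NCAPD2 overlaps MRPL51, which reached 178 FPKM.

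MKI67, which encodes the Ki-67 antigen of the chromosome surface, was at 23.4, 6.86 and 1.499 FPKM in C4-2B MDVR cells and at 27.4, 8.64 and 10.1 FPKM in CWR22Rv1 cells. It was among the 3 genes with the lowest log2 fold change under APO in each line, at -1.75 and -1.66. TOP2A, which untangles sister chromatids, had log2 fold changes of -1.02 and -3.63 under APO and under VER in the first line and of -0.39 and -0.81 in the second. CDCA2, which guides a phosphatase to chromatin at mitotic exit, had log2 fold changes under VER of -3.51 in C4-2B MDVR cells and -1.36 in CWR22Rv1 cells.

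The 3 genes of condensin II alone were not alike. NCAPD3 was at 115, 21.7 and 12.4 FPKM in the DMSO, APO and VER libraries of C4-2B MDVR cells and at 45.1, 14.2 and 17.6 FPKM in CWR22Rv1 cells. Its log2 fold change under APO in C4-2B MDVR cells, -2.40, was below that of all 57 members. NCAPH2, from the same complex, had log2 fold changes from -0.64 to -0.14 over the 4 contrasts. The ratio of NCAPD3 to NCAPH2 was 3.32, 0.693 and 0.561 in the first line and 1.18, 0.459 and 0.551 in the second. Cohesin, which holds sister chromatids together, had smaller differences. Among 10 of its genes VER lowered 7 past 1.2-fold in C4-2B MDVR cells, against 5 in CWR22Rv1 cells (34.9% and 32.3% of all genes), and APO lowered 5 and 3 (35.4% and 39.2%). Its medians were -0.25 and -0.63 under APO and under VER in the first line and 0.11 and -0.25 in the second. SMC1A had the lowest mean of these, with log2 fold changes between -1.07 and -0.63, and STAG2 the highest, with values between -0.14 and 0.80.

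All 7 genes of spindle assembly were lower past 1.2-fold in all 4 contrasts, where 32.3% to 39.2% of all genes were. All 7 were lower under VER than under APO in both lines, as were 10351 of 20122 and 10358 of 21608 genes. PLK1, the kinase of centrosome maturation and mitotic exit, was at 92.6, 44.5 and 3.84 FPKM in the DMSO, APO and VER libraries of C4-2B MDVR cells and at 52.2, 43.0 and 13.5 FPKM in CWR22Rv1 cells. The VER library held the lowest value in each line, and the log2 fold changes of PLK1 under VER, -4.55 and -1.94, were the lowest of the 57 in C4-2B MDVR and the next to lowest in CWR22Rv1 cells. Under APO, PLK1 had -1.05 and -0.28, and the latter passed 1.2-fold neither at the same sum nor when scaled to the housekeeping genes, nor did those of HMMR, AURKA and TPX2. HMMR under APO in C4-2B MDVR cells did not pass with the housekeeping genes either. NUSAP1, a bundler of spindle microtubules, was at 73.2, 36.9 and 6.02 FPKM and at 85.0, 50.2 and 41.0 FPKM. HMMR, a spindle pole protein, was at 38.8, 30.5 and 4.06 FPKM and at 42.0, 34.6 and 25.003 FPKM, the smallest mean change of the group.

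AURKA, the kinase of spindle poles, had log2 fold changes of -0.93 and -2.53 under APO and under VER in C4-2B MDVR and of -0.27 and -1.27 in CWR22Rv1 cells. TPX2, its activator, was close to it, with -0.84 and -2.83 and with -0.30 and -0.96. DLGAP5, which stabilizes kinetochore fibers, had log2 fold changes under VER of -3.54 and -1.57, and ASPM, which organizes spindle poles, of -3.54 and -1.17. ASPM, at 0.528 FPKM, was the lowest member value in any library.

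Taking the 10 kinases together across roles, all 10 fell past 1.2-fold in each of the 4 contrasts, where 32.3% to 39.2% of all genes did. In CWR22Rv1 cells PLK1 and AURKA under APO did not pass at the same sum, and with the housekeeping genes neither did they, TTK under APO or CDK1 under VER. Their medians were -1.36 under APO and -3.24 under VER in C4-2B MDVR cells and -0.67 and -1.23 in CWR22Rv1 cells. Which kinase fell the most depended on the contrast. It was CDK1 under APO and PLK1 under VER in C4-2B MDVR cells, and PKMYT1 under APO and PLK1 under VER in CWR22Rv1 cells. CDK1 fell the least of the 10 under VER in CWR22Rv1 cells, at -0.48.

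Cytokinesis genes fell under VER by similar amounts in CWR22Rv1 cells, from -1.19 to -0.74. PRC1, which bundles the central spindle, was at 43.6, 31.9 and 7.60 FPKM in the DMSO, APO and VER libraries of C4-2B MDVR cells and at 94.3, 63.2 and 45.1 FPKM in CWR22Rv1 cells. CIT, the citron kinase of the midbody, was at 10.997, 3.35 and 0.931 FPKM and at 20.5, 9.89 and 8.91 FPKM, the lowest mean fold change of the group. RACGAP1, which with ECT2 sets the plane of RhoA activation, was at 43.4, 25.2 and 8.32 FPKM and at 52.7, 44.9 and 31.4 FPKM, the highest mean. RACGAP1 did not pass 1.2-fold under APO in CWR22Rv1 cells, but it did at the same sum without mitochondrial genes. ECT2 had log2 fold changes of -0.86 and -2.14 under APO and under VER in C4-2B MDVR cells and of -0.48 and -1.11 in CWR22Rv1 cells. ANLN, the anillin of the contractile ring, had -1.24 and -3.42 and then -1.16 and -0.93, so that APO gave the lower value in CWR22Rv1 cells.

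The transcription factors of the G2 and M program, FOXM1 and MYBL2, fell by more than 2-fold in all 4 contrasts, where 8.92% to 16.8% of all genes did. FOXM1 was at 71.4, 31.1 and 12.9 FPKM in the DMSO, APO and VER libraries of C4-2B MDVR cells and at 69.3, 29.8 and 26.4 FPKM in CWR22Rv1 cells. MYBL2 was at 98.0, 42.5 and 11.6 FPKM and at 34.7, 15.6 and 14.1 FPKM. Each was left at between 43.0% and 44.8% of DMSO by APO in both lines, and in CWR22Rv1 cells VER and APO differed by less than 1.2-fold for both. FOXM1 overlaps RHNO1, which reached 42.3 FPKM. Genes of the MuvB and DREAM complexes changed in both directions. Of 10 such genes APO lowered 3 and raised 3 past 1.2-fold in each line. Among all genes 35.4% and 39.2% were lower, and 7582 of 20122 and 7692 of 21608 were higher. VER lowered 6 and raised 2 in C4-2B MDVR cells and lowered 3 and raised 1 in CWR22Rv1 cells. Among all genes 34.9% and 32.3% were lower under VER, and 7173 of 20122 and 6926 of 21608 were higher. RBL1, a pocket protein of proliferating cells, had log2 fold changes of -1.29 and -2.00 under APO and under VER in the first line and of -0.89 and -0.18 in the second. RBL2, the pocket protein of resting cells, was at 15.4, 19.6 and 31.2 FPKM and at 32.1, 36.2 and 52.4 FPKM, and was highest under VER in both lines.

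A list of 25 other G2 and M genes gave medians of -0.70 and -2.44 under APO and under VER in C4-2B MDVR cells and of -0.33 and -1.05 in CWR22Rv1 cells. VER lowered 25 and 23 of them past 1.2-fold in the 2 lines (34.9% and 32.3% of all genes), and APO lowered 20 and 14 (35.4% and 39.2%). GTSE1, a regulator of microtubules and p53 in G2, had the lowest mean, with log2 fold changes of -1.34 and -4.20 in C4-2B MDVR and -1.50 and -1.61 in CWR22Rv1 cells. CKS1B, a small subunit of cyclin-dependent kinases, had the highest, at 115, 126 and 61.5 FPKM and at 204, 206 and 196 FPKM.

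**Figure D4:**
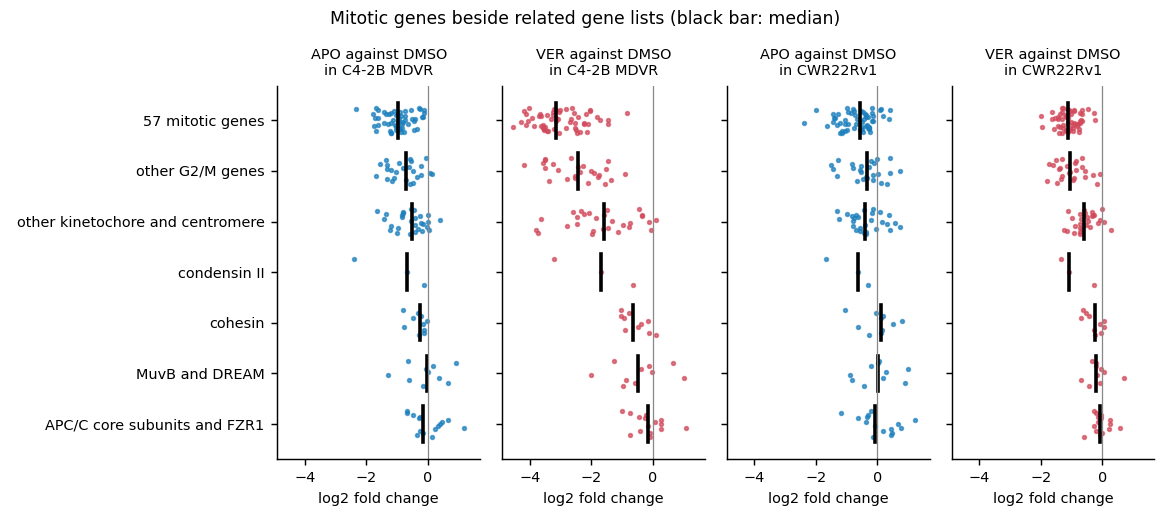
Log2 fold change of the 57 mitotic genes and of 6 related lists in the 4 contrasts of inhibitor and DMSO. Each dot is a gene and black bars are medians, which under VER in C4-2B MDVR cells run from -3.14 for the mitotic genes and -2.44 for the other G2 and M genes to -0.14 for the core of the APC/C.

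The second question was whether the compounds differed within a line. In C4-2B MDVR cells VER was lower than APO past 1.2-fold for all 57 genes (32.5% of all genes were lower) and past 2-fold for 48 (10.5%), with a median of -2.12. In CWR22Rv1 cells VER was lower past 1.2-fold for 33 genes (34.5% of all genes) and past 2-fold for 10 (10.5%), and higher past 1.2-fold for 9 (37.3%), with a median of -0.42. The 10 were CCNB1, CCNB2, CDC25C, CDC20, PTTG1, CENPA, CENPE, PLK1, AURKA and DLGAP5. The 9 higher under VER were CDK1, PKMYT1, INCENP, CDCA5, CENPN, CENPM, SPC24, ZWINT and KNTC1. This number depended on the scaling and was 3 at the same sum, 11 at a median ratio of 1, 12 with the housekeeping genes and 11 at the same sum without mitochondrial genes. KNTC1 and PKMYT1 led it, with log2 fold changes of VER against APO of 1.46 and 0.90.

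The third question was whether the lines differed. Under DMSO, 23 genes were lower in C4-2B MDVR than in CWR22Rv1 cells past 1.2-fold (43.2% of 20903 genes compared were lower) and 16 were higher (39.2%), with a median of -0.20. CDK1 and MYBL2 were higher in C4-2B MDVR cells by 1.55 and 1.49 on the log2 scale, and ASPM, SMC2 and KNTC1 had the lowest values, -1.74, -1.54 and -1.32. Across the 57 genes the DMSO levels of the lines had a Spearman correlation of 0.80.

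Under VER the fall was deeper in C4-2B MDVR cells for every gene. The log2 fold change in C4-2B MDVR minus that in CWR22Rv1 cells was below 0 for 57 of 57 genes, under each of the 4 other scalings too, where 49.9% of 18059 genes compared in both lines were below 0. It was below -1 for 53 members and for 11.5% of all genes, and its median was -1.87. TTK, NDC80 and SPC25 had the widest gaps, at -3.46, -3.31 and -3.28, and SMC2, UBE2S and BUB3 the narrowest, at -0.66, -0.62 and -0.58. Under APO the gap was below 0 for 45 of 57 genes, against 49.8% of all genes, with a median of -0.30. It ran from -1.54 for CDK1 to 1.17 for KNTC1. None of these differences could be tested, since each rests on 4 single libraries.

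The order of the genes was shared between lines more under APO than under VER. Across the 57 genes, which are not independent of each other, the fold changes under APO in the 2 lines had a Spearman correlation of 0.73, against 0.44 across all 18059 genes. Under VER the value was 0.35, against 0.39 across all genes. Between APO in C4-2B MDVR and VER in CWR22Rv1 cells it was 0.12, and between VER in C4-2B MDVR and APO in CWR22Rv1 cells it was 0.03, against 0.34 and 0.33 across all genes. The pairs of contrasts compared here share no library.

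**Figure D5:**
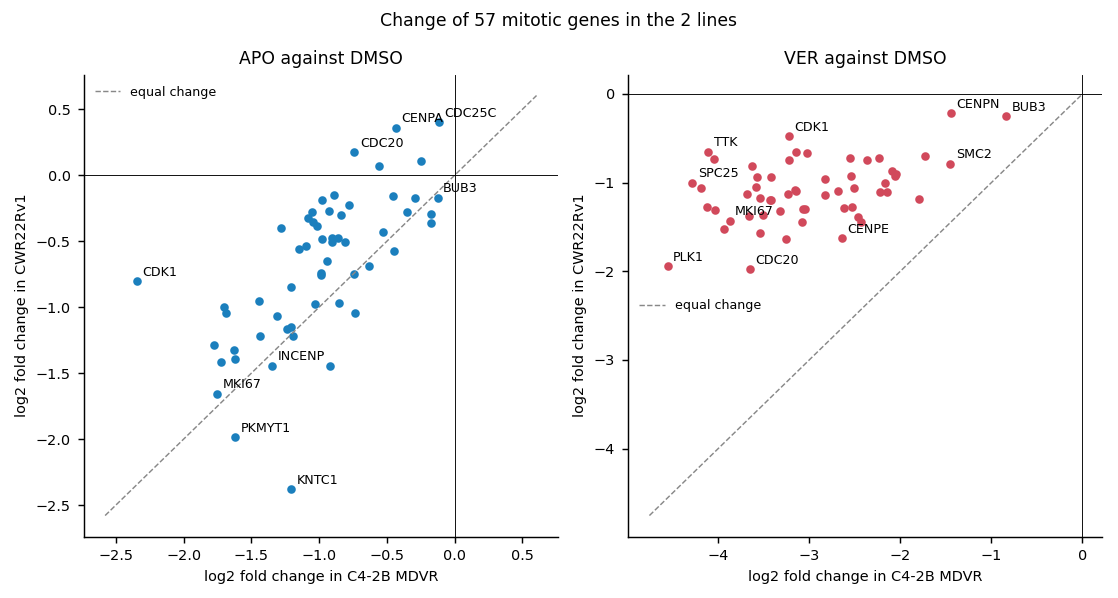
Log2 fold change of the 57 mitotic genes in C4-2B MDVR (horizontal) and CWR22Rv1 cells (vertical) under APO on the left and VER on the right, 1 library per condition. The dashed line marks equal change. Under VER all 57 points lie above it, and under APO 45 do, with CDK1 the farthest above and KNTC1 the farthest below.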

How the data were processed

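RNA sequencing libraries of 2 lines under 3 treatments were analysed, 1 per condition. The authors aligned reads with HISAT, quantified genes with Cufflinks and deposited FPKM values scaled between libraries by Cuffnorm, on GRCh38 per the labels. The annotation release is not given in the sources used here. The labels describe a stranded kit with selection of polyadenylated RNA, and the methods of the study another kit. Identifiers were matched to GENCODE 29, where 57047 of 60658 had a symbol. Genes above 0.1 FPKM in at least 1 library of a line were compared as differences of log2(FPKM + 0.1), with thresholds of 1.2-fold and 2-fold. No test was made, and a fit over both lines with line and treatment as terms was not run. The 57 genes, the related lists and the naming rule were chosen with earlier results of these data known. Values in all 6 libraries were given for PLK1, UBE2C and, in each role, the genes with the highest DMSO level and the lowest and highest mean fold change. Exceptions and other members were named under their role. Some values of the marker lists are not reported here. Promoter sequences are from RefSeq (GRCh38.p14), and 13 members had none in the table used. The functions were tested on simulated data. Python 3.11.15, pandas 2.3.3, numpy 2.4.6 and matplotlib 3.10.9 were used.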

Additional observations from a re-analysis of the deposited data

Results flagged for a closer look

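Members whose fold change had opposite signs in the 2 lines were picked out. The differences were not tested, since there was 1 library per condition. With APO against DMSO, 5 genes were below DMSO in C4-2B MDVR and above it in CWR22Rv1 cells. The log2 fold change in C4-2B MDVR minus that in CWR22Rv1 cells was -0.36 for CCNB2, -0.63 for CDC25B, -0.52 for CDC25C, -0.92 for CDC20 and -0.79 for CENPA. CCNB2 and CDC25B lost the opposite sign when libraries were brought to the same sum without mitochondrial genes.

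With VER against APO, 14 genes were lower with VER in C4-2B MDVR and higher with VER in CWR22Rv1 cells. Among entry and checkpoint genes the difference was -1.20 for CDK1, -2.44 for PKMYT1 and -1.46 for MAD2L1. For INCENP of the passenger complex it was -1.25, and for CDCA5, which protects cohesin, it was -1.83. Kinetochore genes had -0.64 for CENPN, -1.34 for CENPM, -2.11 for SPC24, -1.30 for ZWINT and -2.79 for KNTC1. Chromosome genes had -1.34 for SMC4, -2.54 for NCAPH and -2.35 for MKI67, and ANLN of the contractile ring had -2.41. In CWR22Rv1 cells alone, the members higher with VER than with APO were 15 at a median ratio of 1 and 20 with the housekeeping genes. They were 17 at the same sum without mitochondrial genes. When libraries were brought to the same sum, 11 members were higher with VER than with APO in CWR22Rv1 cells, and MAD2L1, SMC4 and NCAPH were not among them.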

How the results depend on the processing

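The alternatives were other pseudocounts, filters, scalings and a 1.5-fold threshold. Of 196 counts and medians recomputed under them, 188 stayed within 1.5 times the count or on their side of 1.2-fold, and 0 medians turned direction. A count has no direction to turn. Every filter kept all 57 members, so the filters could not move any of these values or those of single genes. Their repeats are included in both totals. With a pseudocount of 1, the genes lower by 2-fold with VER than with APO in CWR22Rv1 cells were 6 (3.11% of all genes). Scaled to 10 housekeeping genes they were also 6 (8.87%). That scaling left 16 genes lower by 2-fold with VER against DMSO in CWR22Rv1 cells (6.32% of all genes). It left 5 lower by 2-fold in C4-2B MDVR than in CWR22Rv1 cells with DMSO (24.7%). It moved the median of genes above 1 FPKM by 0.44 with VER in C4-2B MDVR cells. At 1.5-fold, 27 genes were lower with APO in CWR22Rv1 cells (27.5% of all genes), and 21 were lower with VER than with APO there (20.6%). The median difference of the lines with DMSO was -0.32 at a median ratio of 1 and -0.33 at the same sum without mitochondrial genes, a scaling chosen after seeing the data. Of 900 values of single genes, 871 stayed on their side of 1.2-fold. Among the rest, BUB3 and CENPN with VER in CWR22Rv1 cells moved to 0.04 and 0.07 with the housekeeping genes. No paired analysis was possible because no replicate numbers pair the libraries and no value comes from a test. A fit over both lines with line and treatment as terms was not run. Leaving out a library would leave a condition of a line with none. Depth is known only as a ratio, so no counting error is given for low values such as 0.528 FPKM of ASPM. Reads of overlapping genes (15 members overlap a gene above 1 FPKM) or of retrocopies (13 members have a named one) may be shared.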
